A study of Mus musculus with 20 samples.

Results

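5-formylcytosine (5fC) is formed when TET enzymes oxidise methylated cytosine, and it is removed by thymine DNA glycosylase (TDG), after which base excision repair puts back an unmodified cytosine. In an embryo that lacks TDG the base is no longer cut out, so sites that TET enzymes reach keep their 5fC. A site that carries 5fC in wild-type (WT) tissue as well is one where the base can be seen although TDG is present. This report is about such sites in the carcass, the part of the embryo left after dissection, which holds limb buds, somites, trunk mesenchyme, cartilage precursors and many other cell types.

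The stretches described here were chosen by peaks. The autosomes of the NCBIM37 (mm9) genome were divided into bins of 100 bp, and a stretch was kept where every bin lay under a 5fC peak of both WT and both *Tdg* null carcasses, where no bin lay under a peak of WT hindbrain, heart or liver, and where its length was 200 bp or more. This gave 7479 stretches, out of 13531 stretches found in both genotypes of the carcass and out of 412470 separate stretches under any peak of the series. Since the carcass peaks and the WT peaks of the other tissues chose them, those peaks are described without a test. The *Tdg* null hindbrain, heart and liver libraries took no part in the choice and were used for the tests.

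The series holds 20 chemical pull-down libraries of 5fC from 12 embryos of 6 litters at E11.5, in mid-gestation. The null embryos (KO in the labels) make no TDG with a working catalytic domain, their targeted allele carries neomycin resistance, and their controls are WT littermates. Hindbrain was taken from 4 WT and 4 null embryos of litters A, O, Q and Z. Heart, liver and carcass were taken from 4 other embryos, 1 WT and 1 null in each of 2 litters, pair_a and pair_b by their labels, so the null hearts and livers come from the same 2 embryos as the null carcasses, while the hindbrain embryos are independent of them. The null liver of pair_b, with 206 autosomal peaks, was set aside by the study for quality and enters the tests only as an alternative. Autosomal peaks numbered 41464 and 34657 in the WT carcasses, 164127 and 217565 in the null carcasses, 1507 to 21063 in the WT hindbrains, 5418 and 5881 in the WT hearts, 1740 and 16368 in the WT livers, and 100553 to 251271 in the 7 null libraries of other tissues that were used. The files give the position of each peak without a height or a number of reads, so depth is unknown and the precision of a single peak cannot be stated. Nor do they hold expression, so neither the tissues nor the deletion could be checked against marker genes. *Tdg* itself (chr10:82092573-82113544) was under 2 peaks in each null carcass and 1 peak in each WT carcass, which does not bear on the deletion. In whole dissected tissue, 5fC in a few cells and a little 5fC in many cells cannot be told apart.

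Sequences of 6 stretches are shown because they span what the results turn on, namely sites in genes from the lists of limb and muscle development that differ in how many other null tissues share them, and sites that no other null tissue shares. Each is the central 300 bp of a stretch in NCBIM37, read on the plus strand from 5′ to 3′, with every CpG in capitals, since CpG is where most cytosine methylation, and so most 5fC, arises in these tissues. The stretch in an intron of *Tshz2*, a teashirt zinc finger factor (chr2:169640401-169640700), and the one in an intron of *Zfhx3*, a zinc finger homeobox factor (chr8:111361251-111361550), lay under peaks of all 4 null hindbrains. The stretch in an intron of *Eya1*, a transcriptional coactivator of muscle and ear development (chr1:14183601-14183900), and the one over coding exons of *Ttn*, the giant elastic protein of the sarcomere (chr2:76645151-76645450), lay under peaks of all 7 null libraries. The last 2 are the longest stretches under no peak of any of those 7 libraries, and they lie in intergenic sequence (chr8:27315951-27316250) and in an intron of *AU040320* (chr4:126460101-126460400).
Tshz2: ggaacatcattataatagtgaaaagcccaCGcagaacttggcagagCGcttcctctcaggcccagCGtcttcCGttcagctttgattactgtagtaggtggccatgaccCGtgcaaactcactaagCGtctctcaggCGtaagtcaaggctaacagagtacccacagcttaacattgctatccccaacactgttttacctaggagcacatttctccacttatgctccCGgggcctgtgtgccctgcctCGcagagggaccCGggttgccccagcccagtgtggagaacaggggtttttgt
Zfhx3: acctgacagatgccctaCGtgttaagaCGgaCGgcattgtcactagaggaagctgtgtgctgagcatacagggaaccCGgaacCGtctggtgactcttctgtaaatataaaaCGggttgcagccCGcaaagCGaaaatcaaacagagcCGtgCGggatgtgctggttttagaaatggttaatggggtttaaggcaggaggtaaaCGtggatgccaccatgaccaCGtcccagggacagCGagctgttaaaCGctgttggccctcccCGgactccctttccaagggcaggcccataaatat
Eya1: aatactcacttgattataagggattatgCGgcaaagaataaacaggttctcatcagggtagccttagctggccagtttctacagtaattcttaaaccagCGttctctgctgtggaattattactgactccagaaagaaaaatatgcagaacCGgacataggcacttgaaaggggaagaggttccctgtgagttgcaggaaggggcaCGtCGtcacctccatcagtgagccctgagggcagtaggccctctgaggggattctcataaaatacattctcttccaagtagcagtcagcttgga
Ttn: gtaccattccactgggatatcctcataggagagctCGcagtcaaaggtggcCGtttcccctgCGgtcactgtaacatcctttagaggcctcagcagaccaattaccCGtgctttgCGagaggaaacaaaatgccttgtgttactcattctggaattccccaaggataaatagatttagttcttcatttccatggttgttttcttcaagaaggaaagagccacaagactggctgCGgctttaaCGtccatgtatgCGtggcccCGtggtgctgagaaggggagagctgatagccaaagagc
Intergenic, chromosome 8: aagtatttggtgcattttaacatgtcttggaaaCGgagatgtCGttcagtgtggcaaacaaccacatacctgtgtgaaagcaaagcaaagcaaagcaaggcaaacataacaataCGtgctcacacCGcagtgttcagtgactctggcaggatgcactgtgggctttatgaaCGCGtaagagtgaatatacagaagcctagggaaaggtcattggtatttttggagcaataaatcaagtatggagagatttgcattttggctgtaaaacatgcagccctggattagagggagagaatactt
AU040320: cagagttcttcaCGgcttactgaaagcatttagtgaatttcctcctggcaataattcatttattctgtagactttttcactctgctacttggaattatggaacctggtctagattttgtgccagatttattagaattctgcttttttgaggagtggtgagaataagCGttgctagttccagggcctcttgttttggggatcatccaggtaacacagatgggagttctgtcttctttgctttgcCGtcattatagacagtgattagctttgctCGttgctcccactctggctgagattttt
These windows hold 10 CpG in *Tshz2*, 15 in *Zfhx3*, 5 in *Eya1*, 9 in *Ttn*, 6 in the intergenic stretch and 4 in *AU040320*. The gene windows were those with the most CpG in their gene and the last 2 were taken by length, so the numbers are not compared.

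The stretches were short, single sites that were rich in CpG for this genome. Together they covered 4.25 Mb, with a median length of 500 bp (quartiles 400 and 700 bp) and a maximum of 2500 bp. GC content was 47.0% and CpG density 2.08 per 100 bp, against 41.9% and 0.851 per 100 bp over the 2394 Mb of ungapped autosomes. The observed over expected CpG ratio was 0.376 in the stretches and 0.194 in the autosomes, so the stretches were less depleted of CpG than the genome. A stretch held a median of 11 CpG, and 1 of the 7479 held none. At the length limit, 45 stretches of 100 bp fell just outside and 353 of 200 bp just inside.

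The values are set beside those of 2 other sets from the same carcasses. The first is the 6052 stretches of both genotypes that touched a WT peak of another tissue, called shared stretches here. They were a little longer and denser in CpG, with a median of 600 bp and 2.32 CpG per 100 bp. The second is 97304 stretches under a peak of both null carcasses and of no WT library, called null-only stretches, with a median of 700 bp and 1.49 CpG per 100 bp. On CpG density the stretches described here therefore lay between the other 2 sets. These are values of the sets that the peaks chose, and no test was made on them.

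The line between the stretches kept and the 6052 left out often rested on a single library. Of those left out, 3159 touched 1 of the 8 WT libraries of other tissues, and in 1675 cases that library was the WT hindbrain of litter Q, the one with the most peaks among WT hindbrains. A WT hindbrain peak was touched by 4747 of them, a WT heart peak by 1456 and a WT liver peak by 1631. Among the stretches kept, 310 (4.14%) had a peak of another WT tissue within 1000 bp and 1692 (22.6%) within 5000 bp. The WT carcasses mattered most for the number: with only that of pair_b required it was 13088, and with only that of pair_a 14474. Without the null carcass of pair_a or of pair_b it was 9833 or 7688, and without the WT hindbrain of litter Q it was 9154. Of the 21143 stretches of 200 bp or more that both WT carcasses shared, 13531 (64%) touched peaks of both null carcasses, and 13493 lay wholly inside them.

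The null peaks at these sites were broader than the WT peaks. Over the stretches, the median peak width was 600 bp in each WT carcass, and 1000 and 1100 bp in the null carcasses of pair_a and pair_b. The medians over all peaks of those libraries were 500, 500, 700 and 700 bp. Within litter pairs the median ratio of null to WT width was 1.67 in pair_a and 1.83 in pair_b. In 7170 of the 7479 stretches (95.9%) the narrower null peak was wider than the wider WT peak, and in 0 was the order turned. Peak number, and so the reach of a peak, differs between the genotypes, and the part of depth in these widths was not tested.

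Most of these sites, chosen for having no peak in another WT tissue, carried a peak in other tissues once *Tdg* was absent. Of the stretches, 6176 (82.6%) touched a peak of at least 1 null hindbrain, 4883 (65.3%) of at least 1 null heart and 3785 (50.6%) of the null liver of pair_a. The same shares were 62.6%, 52.3% and 28.3% of null-only stretches and 96.2%, 82.4% and 64.4% of shared stretches. By bases, peaks of the null hindbrains covered 59.0% of the stretches in litter A, 54.5% in O, 65.1% in Q and 67.6% in Z. Those libraries covered 3.82%, 2.84%, 3.74% and 3.89% of autosomal bins. Peaks of the null hearts covered 63.2% in pair_a and 32.2% in pair_b, where 8.59% and 3.87% of bins lay under a peak. Peaks of the null liver of pair_a covered 50.6%, against 3.23% of bins. In every one of the 7 libraries the cover of the stretches was several times that of the genome, and the lowest value among tissues was that of the null heart of pair_b. The set-aside null liver of pair_b touched 2 stretches, out of its 206 peaks.

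The cover of these stretches by other null tissues lay above that of null-only stretches and below that of shared stretches. Null-only stretches were covered to 39.2%, 31.3%, 39.5% and 40.6% in the null hindbrains of A, O, Q and Z, to 48.6% and 24.1% in the null hearts and to 26.0% in the null liver. The difference averaged 20.6 ± 6.80 percentage points (SD, n = 6 embryos) and was positive in 6 of 6 embryos, from 8.08 to 27.1 points (exact permutation test that flips signs over embryos, two-sided, p = 0.031). These stretches had to lie under a peak of each WT carcass too, while null-only stretches could touch no WT peak. A higher cover in other null libraries may thus follow in part from the choice, and the test cannot separate that part. Shared stretches were covered to between 79.6% and 90.2% in the null hindbrains, 79.7% and 44.5% in the null hearts and 64.4% in the null liver. Against them the stretches fell short by 19.9 ± 5.28 points (SD, n = 6 embryos), in 6 of 6 embryos. WT peaks of hindbrain, heart and liver divided these 2 sets, so a higher cover of shared stretches in null libraries of those tissues follows in part from the choice, and the difference is given as a description. With 6 embryos 0.031 is the smallest p the test can give, and with any 1 embryo left out it cannot go below 0.0625. By library the difference from null-only stretches was 19.8, 23.2, 25.6 and 27.1 points in the null hindbrains of A, O, Q and Z, 14.7 and 8.08 in the null hearts of pair_a and pair_b, and 24.7 in the null liver of pair_a. The null hearts were thus the lowest, and the liver of the same embryo as the heart of pair_a lay within the range of the hindbrains.

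**Figure D1:**
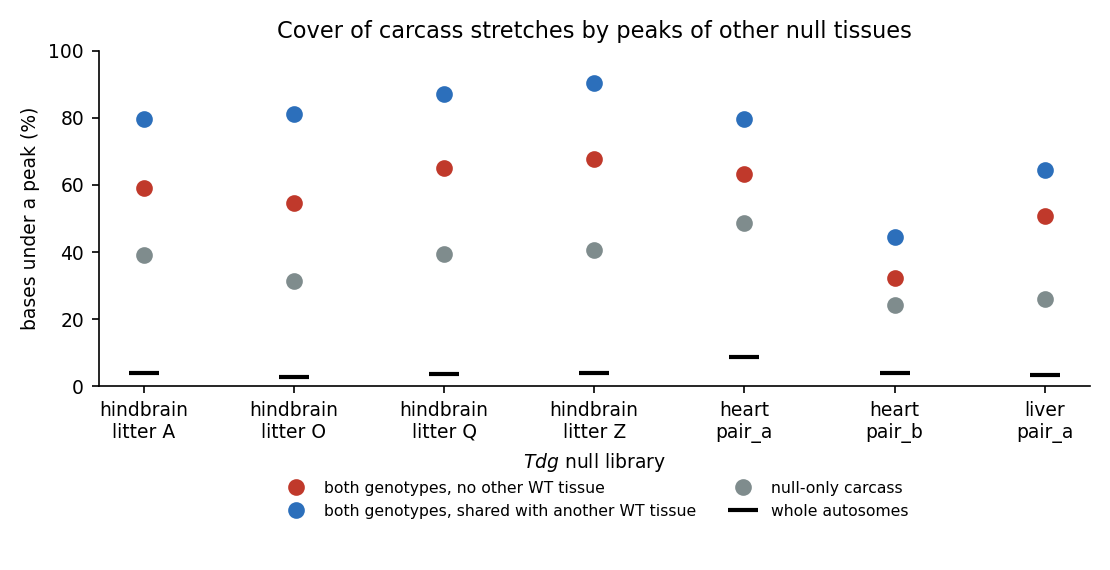
Share of bases under a peak (%, vertical axis) for 3 sets of carcass stretches in each of 7 *Tdg* null libraries of other tissues (horizontal axis). Points are single libraries, and black bars give the share of the whole autosomes. In each library the stretches of both genotypes with no other WT tissue (red) lie between shared stretches (blue) and null-only stretches (grey).

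The order of the sets was nearly the same within classes of CpG density and the same within classes of length. In classes of CpG density, the cover of the stretches was above that of null-only stretches in all 7 libraries, except between 1 and 1.5 CpG per 100 bp, where the null heart of pair_b was 1.31 points lower. In that heart the difference was 0.0225 points between 1.5 and 2 and 1.75 points between 2 and 2.5, against 8.08 without classes. The highest difference of any library ran from 20.5 to 26.0 points over the classes. The part of CpG density in the difference was not tested. It was below that of shared stretches in all 7 libraries except in the class under 1 CpG per 100 bp, which holds 71 of the stretches and 20 shared ones, where it was 6 of 7. Within the stretches, cover was higher in the classes with more CpG. In the null hindbrains it ran from 26.7% to 47.2% in the class under 1 CpG per 100 bp and from 61.5% to 72.9% at 3 or more. In the null hearts it was 43.7% and 15.7% in the lowest class and 69.3% and 37.8% in the highest. In the null liver the highest class was not the top one, with 55.3% between 2.5 and 3 CpG per 100 bp and 50.7% above.

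**Figure D2:**
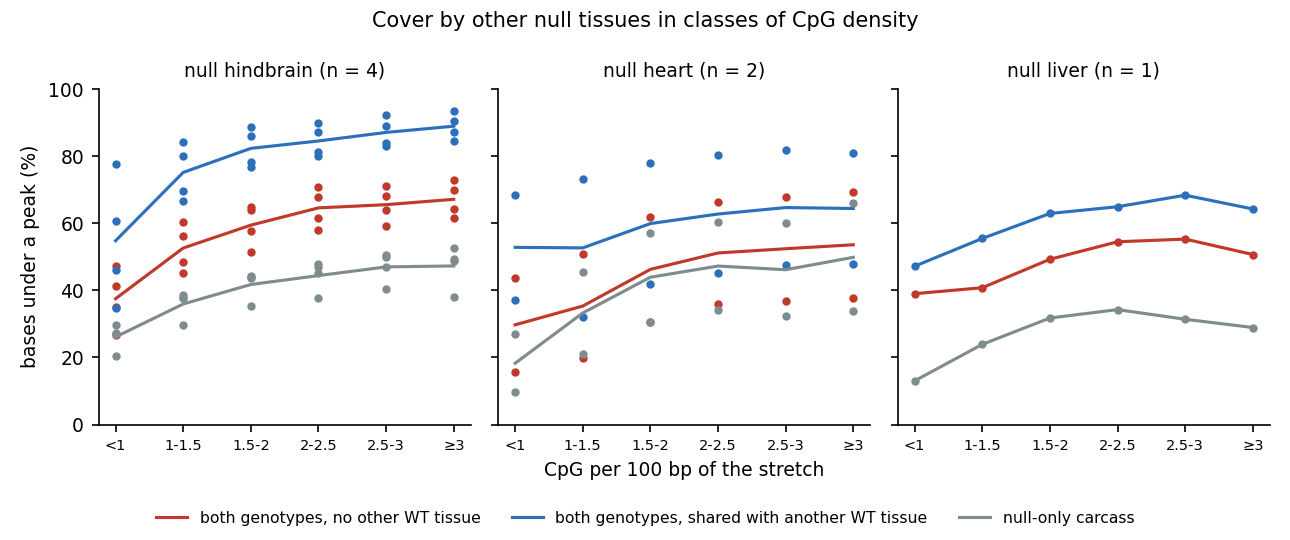
Share of bases under a peak of other null tissues (%, vertical axis) in 6 classes of CpG density of the stretch (CpG per 100 bp, horizontal axis). Points are libraries, lines are their means, and colours are the 3 sets of carcass stretches. In null hindbrain the stretches of both genotypes with no other WT tissue rise from a mean of 37.5% to 67.1%.

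Cover is given by length as well. In the null hindbrains, stretches under 400 bp were covered to a mean of 60.4% and those of 1000 bp or more to 63.2%. In the null hearts the same classes had means of 35.4% and 55.4%, and in the null liver the values were 34.6% and 62.5%. Null-only stretches had means of 21.4% and 42.1% in the null hindbrains, and shared stretches 86.1% and 81.5%. The length of a stretch of both genotypes was mostly set by the narrower WT peaks, and that of a null-only stretch by null peaks alone. The same class of length thus holds null peaks of unlike width in these sets, and it does not match them. A difference between tissues in the relation of cover to length was not tested.

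Cover is also given relative to what each library covers of the genome. The fold of cover over the autosomes was 15.5, 19.2, 17.4 and 17.4 in the null hindbrains of A, O, Q and Z, 7.36 and 8.32 in the null hearts of pair_a and pair_b, and 15.7 in the null liver. On the log2 scale this is 4.11 ± 0.13 (SD, n = 4) for hindbrain and 2.97 ± 0.13 (SD, n = 2) for heart, a difference of 1.14 (exact permutation test, two-sided, p = 0.0667, the smallest that 4 against 2 allows). A library with a wide cover of the genome has a low ceiling on this fold, and for the null heart of pair_a even full cover of the stretches would have given less than the lowest hindbrain value. The order of that library against the hindbrains was therefore fixed by the scale, and nothing is read from the difference. The null heart of pair_b and the null hindbrain of Z covered nearly the same share of the genome, 3.87% and 3.89%, with 32.2% and 67.6% of the stretches, while the null heart of pair_a covered 63.2%, within the range of the hindbrains. Tissue and litter cannot be told apart here, since hindbrain and heart came from different embryos. Null-only stretches had folds of 10.3 to 11 in the null hindbrains, 5.65 and 6.23 in the null hearts and 8.05 in the null liver.

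Counted site by site, the stretches were spread over all degrees of sharing. Peaks of all 7 null libraries lay over 1163 stretches (15.6%), of 6 over 1340 (17.9%), and of none over 632 (8.45%). Among shared stretches the values at the ends were 30.2% for all 7 and 0.529% for none, and among null-only stretches 5.45% and 19.3%. All 4 null hindbrains had a peak at 3544 stretches (47.4%), against 78.3% of shared and 24.5% of null-only stretches. Both null hearts had one at 2455 (32.8%), against 46.0% and 26.3%. The pattern of all 4 null hindbrains without heart or liver was found at 603 stretches (8.06%), close to the 9.68% of shared and 7.69% of null-only stretches. The reverse pattern, both null hearts and no null hindbrain, was found at 242 (3.24%), against 1.34% and 7.55%. The null liver alone had a peak at 94 (1.26%), against 0.198% and 1.61%. These patterns depend on the number of peaks in each library, which was 251271 in the null heart of pair_a and 103099 to 131192 in the null hindbrains.

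**Figure D3:**
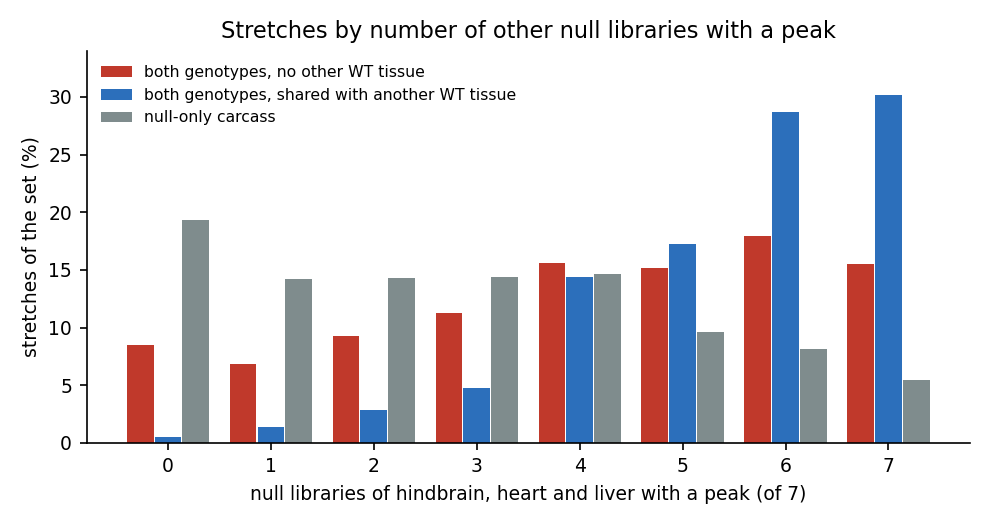
Percentage of stretches (vertical axis) by the number of *Tdg* null libraries of hindbrain, heart and liver with a peak over them (0 to 7, horizontal axis), for the 3 sets of carcass stretches. Stretches of both genotypes with no other WT tissue are spread from 8.45% at 0 to 15.6% at 7, while 30.2% of shared stretches are at 7 and 19.3% of null-only stretches at 0.

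Sites under no other null peak and sites under peaks of all 7 libraries differed in CpG number and in distance to genes. The 632 stretches under no other null peak had a median length of 500 bp, 8 CpG and a median GC content of 44.2%, and the 1163 under all 7 had 600 bp, 13 CpG and 48.2%. The median width of the null carcass peak over them was 800 and 1200 bp. Between these ends the median CpG number went from 9 to 12, while the median length was 500 bp up to 5 libraries and 600 bp at 6. A gene was touched by 42.7% of the stretches under none and 55.7% of those under all 7, and by 47.7% to 51.0% in between with no order. For the 2 ends the median distance to the nearest start of a protein-coding transcript was 79.2 and 33.1 kb. Length and CpG number moved together with sharing, and their part was not tested. Among genes, *Wwox*, an oxidoreductase with WW domains, had 3 of its 15 stretches among the 632, *Accn1*, an acid-sensing ion channel, 3 of 6, and *Ptprg*, a receptor tyrosine phosphatase, 3 of 6, where 8.45% of all stretches were. The genes are 913, 1088 and 689 kb long, and were chosen after their values were seen.

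Around the sites, peaks were less frequent 2 kb away than 5 kb away. At 2 kb from the centre, averaged over both sides, 0.187% and 0.134% of positions lay under a peak of the WT carcasses of pair_a and pair_b, against 1.81% and 1.77% at 5 kb and 0.991% and 0.845% over the autosomes. In the null carcasses the values were 9.19% and 13.0% at 2 kb and 11.9% and 16.2% at 5 kb. The null hindbrains, which took no part in the choice, had 3.63%, 2.53%, 3.5% and 3.42% at 2 kb and 7.05%, 5.13%, 6.62% and 6.82% at 5 kb. All 4 were thus lower at 2 kb than at 5 kb, by close to a factor of 2, and the null hearts and liver less so, with 14.9% and 6.25% in heart and 5.39% in liver at 2 kb against 16.0%, 6.93% and 6.48% at 5 kb. Around null-only stretches the mean of the null hindbrains was 6.18% and 6.26% at 2 kb on either side and 6.34% and 6.43% at 5 kb, with no such dip.

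**Figure D4:**
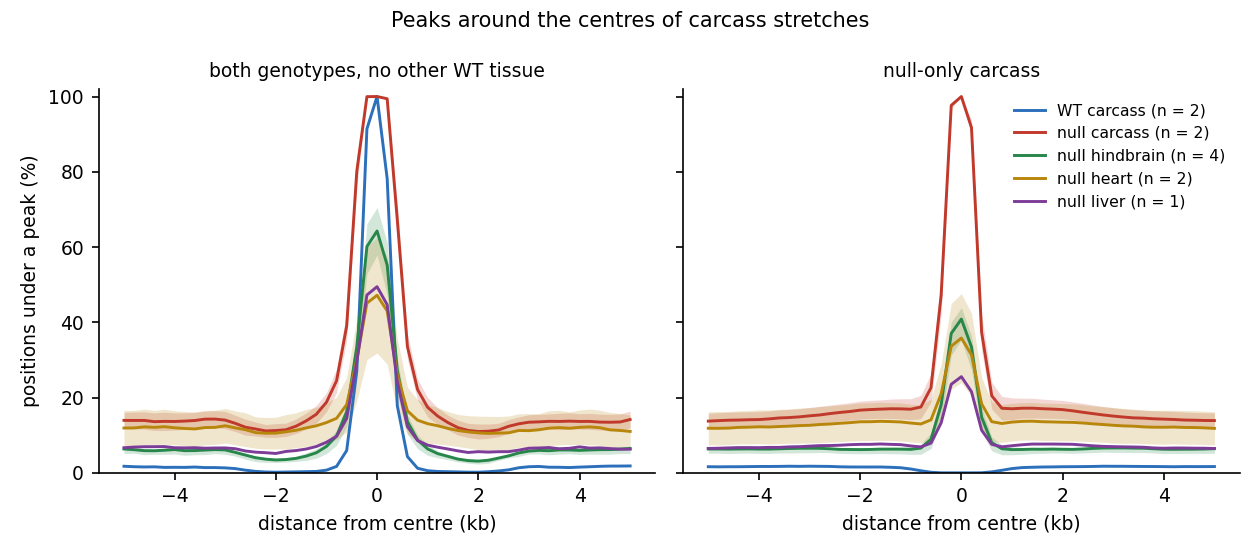
Percentage of positions under a peak (vertical axis) against distance from the centre of the stretch in kb (horizontal axis), for stretches of both genotypes with no other WT tissue (left) and null-only stretches (right). Lines are means over libraries and shading runs from the lowest to the highest library. At the left the null hindbrains reach 57.9% to 70.5% at the centre.

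The sites were spread through the genome, mostly away from promoters. The median gap between neighbours was 129 kb, and 409 of 7460 neighbouring pairs were closer than 10 kb. Density ran from 2.36 per Mb on chromosome 7 to 3.69 per Mb on chromosome 8. Relative to null-only stretches it ran from 6.92 per 100 on chromosome 7 to 8.69 per 100 on chromosome 13. Of all bases in the stretches, 46.2% were intronic, 49.5% intergenic and 4.28% exonic, against 38.4%, 58.2% and 3.45% of the autosomes and 51.8%, 43.8% and 4.43% of null-only stretches (GENCODE vM1 gene models). Coding sequence made up 2.06% of bases, above the 1.44% of the genome and the 1.76% of null-only stretches, and untranslated regions made up 1.51%, close to the 1.45% of the genome. The 1000 bp before transcript starts held 2.05% of bases, less than the 2.27% of the genome, while null-only stretches had 2.95% there. The median distance to the nearest protein-coding start was 47.9 kb, and 209 stretches (2.79%) were within 1 kb. Sequence that passes the island criteria (windows of 200 bp with GC of at least 50% and observed over expected CpG above 0.6) held 12.7% of bases, against 2.74% of the genome, 5.00% of null-only and 19.8% of shared stretches. Such sequence was touched by 1959 stretches (26.2%). By these values the stretches had more sequence that passes the criteria than null-only stretches while having less promoter sequence. The criteria are broad and gave 171196 separate pieces over the autosomes. Across the 3 sets the share of such sequence followed the order of their CpG density.

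The longest stretches were mostly shared by all other null tissues. The longest, of 2500 bp with 48 CpG, lay in an intron of *Mbnl2*, a splicing regulator of the muscleblind family (chr14:120694801-120697300), under carcass peaks of 2500 and 2700 bp in WT and 2800 and 3300 bp in null. The second, of 2400 bp, was intergenic on chromosome 8 (chr8:127815101-127817500), 200 kb from the nearest start, that of *Sipa1l2*. The third, of 2100 bp with 55 CpG, lay in an intron of *Prox1*, a homeobox factor of lymphatic endothelium and liver (chr1:191972001-191974100). All 3 lay under peaks of all 7 null libraries of other tissues. The 10 longest cut through a tie of 4 stretches of 1800 bp, of which the first in genome order were taken. Of the 10, 6 lay under peaks of all 7. An exception was a stretch of 1900 bp in an intron of *Hlcs*, which encodes holocarboxylase synthetase (chr16:94378001-94379900), where the null carcass peaks were 4400 bp wide in both litters and no null hindbrain had a peak.

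Genes that hold a stretch were a minority, 2061 of 21150 autosomal protein-coding genes or 9.74%, and long genes held one more often. Of genes of 30 to 100 kb 13.9% held one, of 100 to 300 kb 43.8%, and above that 72.7%, while among genes under 10 kb it was 0.839%. Per Mb of gene the density was 2.19 in the shortest class and 4.60 in the 100 to 300 kb class, so density as well as the share was higher in long genes. Null-only stretches had densities of 45.3 and 63.7 per Mb in the same classes.

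The share of genes with a stretch differed between the lists. Of the 36 limb and mesenchyme factors matched, 16 (44.4%) held at least 1, and of 35 signalling genes of trunk and limb 17 (48.6%) did. Cartilage, bone and matrix genes followed with 9 of 30, somite and skeletal muscle genes with 7 of 27 (25.9%) and endothelial genes with 4 of 16. The shares were 6.90% (2 of 29) in hindbrain and neural genes, 8.33% (2 of 24) in heart genes, 7.14% (1 of 14) in hepatocyte genes and 7.69% (1 of 13) in blood genes, close to the background of 9.74%. None of the 38 *Hox* genes, which lay out the body axis, and none of the 12 genes for writing, reading and removing cytosine marks held one. These 2 lists span only 0.25 and 0.529 Mb of gene and held 7 and 35 null-only stretches, so the absence says little.

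The lists also differ in gene length. The median gene was 48.6 kb long among limb and mesenchyme factors, 92.6 kb among signalling genes, 6.71 kb among hindbrain and neural genes and 4.04 kb among *Hox* genes, against 15.5 kb for all genes. Per Mb of gene, limb and mesenchyme factors held 10.4 stretches, signalling genes 8.32, cartilage, bone and matrix genes 5.82 and somite and muscle genes 5.57, against 3.72 for all genes and 1.48 for hindbrain and neural genes. Per 100 null-only stretches, a scale on which both counts come from the same gene bodies, the same lists had 8.48, 8.04, 7.98 and 8.55, against 6.94 for all genes and 2.61 for hindbrain and neural genes. On this scale heart genes had 8.33, hepatocyte genes 7.69, and blood and endothelial genes 6.06 each, from 5, 1, 2 and 6 stretches. By these few stretches the lists of carcass tissues did not stand apart from those of other tissues on this scale. Per Mb the other lists were lower, at 3.13 for heart, 3.88 for hepatocyte, 4.24 for blood and 4.58 for endothelial genes. The value of hindbrain and neural genes rests on 3 stretches, 2 in *Pax5* and 1 in *Lmx1a*, and without the WT carcass of pair_b these genes held 5 and 2. The rule left out stretches under WT peaks of hindbrain, heart and liver. Lower values and shares in the lists of those tissues may therefore follow in part from the choice. The lists were written with earlier results of these data known, and no test was made on them.

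**Figure D5:**
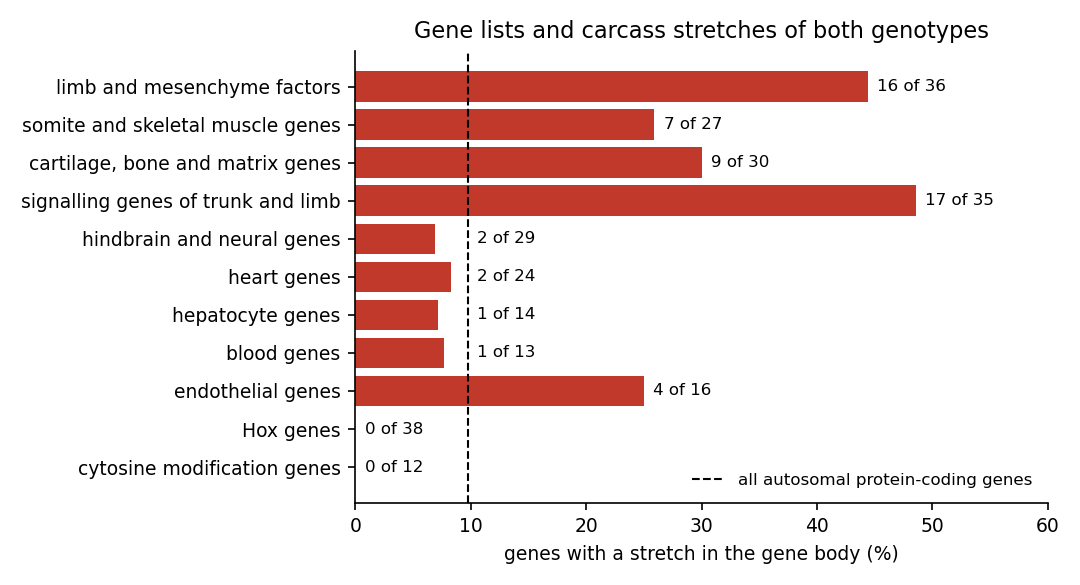
Percentage of genes in each list (horizontal axis) whose body holds at least 1 carcass stretch of both genotypes with no other WT tissue, with the counts beside the bars. The dashed line marks 9.74%, the share of all autosomal protein-coding genes, and limb and mesenchyme factors (44.4%) and signalling genes of trunk and limb (48.6%) stand furthest above it.

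Among the limb and mesenchyme factors, *Tshz2* held the most. Its 10 stretches lay along 439 kb (chr2:169458671-169897316) with 11 to 22 CpG each, under WT peaks of 500 to 1500 bp and null peaks of 1000 to 4400 bp. Of the 10, the null hindbrains of A, O, Q and Z covered 6, 5, 8 and 6, the null hearts of pair_a and pair_b 8 and 2, and the null liver 8. *Foxp1*, a forkhead repressor (chr6:98875332-99216526), held 8, of which the null hindbrains covered 2, 2, 3 and 5, the hearts 6 and 3 and the liver 5. The stretch at chr6:99035501-99036100, with 10 CpG, lay under none of the 7. *Zfhx3* held 4 (chr8:111238544-111485521), of which the null hindbrains covered 3, 3, 4 and 3. Within each of these genes neighbouring sites differed in which null tissues shared them.

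The stretches in muscle genes ranged from 1 to all 7 of the null libraries in their sharing. *Ttn* (chr2:76542037-76820604) held 2 stretches of 600 bp with 14 and 15 CpG, both over coding exons and both under peaks of all 4 null hindbrains. *Eya1* (chr1:14159035-14300281) held 2, one under all 7 null libraries and the other under 3 null hindbrains and no heart or liver. *Eya4*, a related coactivator (chr10:22823974-23069701), held 2, which both null hearts covered and of which the null hindbrains of Q and Z covered 1 each and those of A and O 0. *Myl4*, an atrial and embryonic myosin light chain (chr11:104411977-104457067), held 3 in 45.1 kb, of which the null hearts of pair_a and pair_b covered 3 and 2 and the null hindbrains of A, O, Q and Z 1, 1, 1 and 2. *Myocd*, the coactivator of SRF in cardiac and smooth muscle (chr11:64990063-65083491), held 3, of which the null hearts covered 3 and 2 and each null hindbrain covered 2.

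In the list of cartilage, bone and matrix genes *Fgfr2*, *Sox5* and *Fbn1* held the most, and in that of signalling genes *Slit3*, *Ntn1* and *Robo1*. *Fgfr2*, a receptor for fibroblast growth factors, held 20, but its gene model in this annotation runs over 3009 kb (chr7:137305965-140315033) and takes in 31 other protein-coding genes, which hold 10 of the 20. Without *Fgfr2* the list of cartilage, bone and matrix genes held 19 stretches, 5.15 per Mb and 6.99 per 100 null-only stretches. *Sox5*, a chondrogenic factor (chr6:143776945-144730497), held 8, of which the null hindbrains covered 5, 4, 5 and 5, the heart of pair_a 6 and that of pair_b 0. *Fbn1*, the fibrillin of microfibrils (chr2:125126330-125333729), held 3 that all 4 null hindbrains covered. *Slit3* (chr11:34934726-35522009), a ligand of Robo receptors, held 9, of which the null hindbrains covered 7, 8, 8 and 7, the hearts 8 and 4 and the liver 5. *Robo1* (chr16:72663394-73046340), a receptor of Slit ligands, held 5, of which the null hindbrains covered 2, 1, 3 and 2 and the liver all 5. *Ntn1*, a netrin (chr11:68022866-68214325), held 6, of which 4 or 5 were covered in each null hindbrain. Among these genes only *Robo1* had more sites covered in the null liver than in any null hindbrain.

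The lists of hindbrain, heart, hepatocyte, blood and endothelial genes held 3, 5, 1, 2 and 6 stretches. In *Pax5*, a factor of the midbrain-hindbrain boundary and of B cells (chr4:44544017-44724318), 2 stretches with 18 CpG each were covered in the null hindbrains of Q and Z, 1 and 2 of them, in neither of the other hindbrains and in no heart or liver. In *Lmx1a*, a roof plate factor (chr1:169619370-169778872), 1 stretch was covered in the null hindbrains of A, O and Q and in no heart or liver. These were the 3 stretches of the hindbrain list. *Zfpm2*, a cofactor of GATA factors in the heart (chr15:40486588-40936138), held 2 that both null hearts and the null liver covered. *Runx1*, needed for blood stem cells (chr16:92601712-92826311), *Nrp1*, a receptor on vessels and axons (chr8:130882973-131029362), and *Erg*, an endothelial ETS factor (chr16:95580776-95808200), held 2 each, and *Fli1* (chr9:32229793-32348974), of the same family, 1. The *Prox1* stretch above was the 1 of the hepatocyte list.

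Among all genes, *Gm20388* held the most stretches, 40, in a model of 4435 kb that takes in 72 other protein-coding genes. *Rbms3*, an RNA-binding protein (chr9:116481864-117539031), held 21, of which 18 lay under a null hindbrain peak, 12 under a null heart peak and 10 under one of the null liver. *Npas3*, a bHLH-PAS factor, held 16, *Wwox* 15, *Gpc6*, a glypican, 12, and *Auts2* 11. *Cadm1*, an adhesion molecule (chr9:47338256-47665720), held 10 in 327 kb, and *App*, the amyloid precursor (chr16:84954685-85173952), 9 in 219 kb, which are 3.05 and 4.10 per 100 kb. By density *Kank2* led with 3 stretches in 31.8 kb (9.44 per 100 kb), with 1 null-only stretch and no shared one in its body. All 3 lay under peaks of both null hearts, and 2, 2, 2 and 3 of them under those of the null hindbrains. *Best3*, a bestrophin channel, followed with 3 in 38.7 kb and *Myl4* with 3 in 45.1 kb. Many of the counts per gene rested on 1 WT carcass. Without that of pair_a *Gm20388* held 63, *Auts2* 23, *Gpc6* 19, *Slit3* 14, *Sox5* 14, *Zfhx3* 7, *Zfpm2* 5 and *Fli1* 3. Without that of pair_b *Gm20388* held 70, *Fgfr2* 34, *Auts2* 23, *Gpc6* 21, *Slit3* 18, *Sox5* 16, *Robo1* 10, *Zfhx3* 7, *Eya4* 5, *Fbn1* 5 and *Prox1* 2.

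Short words of DNA known from transcription factors were counted in the central 300 bp of the 7126 stretches of 300 bp or more, on both strands, beside all 7978600 ungapped windows of 300 bp. CAGCTG, the E-box preferred by myogenic factors, was in 25.9% of the stretches, 10.9% of all windows, 23.9% of null-only and 28.3% of shared stretches. CACGTG, the E-box of Myc and Usf, which holds a CpG, was in 8.67%, 2.99%, 5.40% and 11.4%. CAGATG, an E-box of Twist and neural bHLH factors, was in 31.8%, 21.8%, 31.2% and 31.7%. TGACAG, of Meis and Tgif factors, was in 26.6%, 18.4%, 27.4% and 29.8%, so null-only and shared stretches held it more often. GGAATG, of TEAD factors, was in 21.1%, 15.9%, 18.5% and 19.7%, and TGANTCA, of AP-1, in 11%, 8.87%, 10.4% and 10.8%. For these words the excess over all windows was common to the 3 sets. Lower than in all windows were AT-rich words, TAATTA of homeodomain factors with 8.13% against 10.5% (10.6% in null-only and 9.20% in shared stretches) and AGATAA of GATA factors with 12.9% against 19.1% (16.2% and 14.8%). TGTGGT of Runx factors had 18.4% against 20.2% (19.97% and 18.2%), and ACAAAG of Sox factors 22.7% against 25.8% (26.2% and 26.1%). The 3 E-boxes belong to the family CANNTG. GC content moves with these shares, 47.0% in the stretches against 41.9% in the genome, and its part was not tested.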

How the data were processed

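The deposited files hold, for each of 20 pull-down libraries, the start and end of each 5fC peak, a position in bases on a 100 bp grid. The authors trimmed reads with Trim Galore, aligned them to NCBIM37 (mm9) with Bowtie2 and called peaks in each pull-down with MACS in SeqMonk (p value cutoff 1e-05, fragment size 200 bp). Whether input was used for calling is not given in the sources used here. More reads give more and wider peaks, so cover depends on depth, which is unknown.

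Stretches, cover and exact tests were computed in Python 3.11.15 with numpy 2.4.6, and checked on simulated peaks. No peak lay beyond a chromosome end of the reference. Cover is the share of a set's bases under a library's peaks. Heart and liver of 1 embryo were averaged before the sign-flip test. Genes were GENCODE vM1 protein-coding models with a unique symbol. Genes were named by a rule: the 20 with the most stretches, the 8 densest of at least 20 kb with 3 or more, and up to 3 per list. Sequences were those with the most CpG in their central 300 bp in the first 6 such list genes, and the 2 longest under no other null peak; 6 are printed. Repeats were not analysed. The stretches and the 11 lists were chosen with earlier results of these data known. Alternatives covered length, peak width, touching, single libraries, CpG class and gene margins.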

Additional observations from a re-analysis of the deposited data

How the results depend on the processing

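Both differences in cover kept their direction under each alternative given here. Without 1 embryo at a time the difference from null-only stretches was 19.3 to 23.1 points and that from shared stretches -21.4 to -18.6 points. For the former p was 0.0625 each time, the smallest that an exact sign-flip permutation test allows for 5 embryos. Other ways to count cover, short stretches, wide peaks, the set-aside liver and a CpG class of 4 to 8 per 300 bp gave 16.2 to 32 and -23.2 to -18.7 points, with p = 0.031 for the former each time by the exact permutation test over 6 embryos. The hindbrain minus heart difference on the log2 scale was 1.06 to 1.23 without 1 library at a time. The number of stretches was 3746 with carcass peaks of at least 600 bp only, and 7490 with chromosome X. Without 1 library at a time it was 7493 to 14474. Counting a WT peak in an adjacent bin as touching, an alternative chosen after seeing the data, gave 7441. By midpoints the shares were 5.23% exonic, 44.0% intronic, 50.8% intergenic and 17.6% in islands, and promoters drawn wider, 2000 bp before and 500 bp after the start, held 4.58%. Genes with a stretch numbered 2103 to 3288 without 1 carcass library and 2693 with 10 kb on each side. Of the counts per named gene under these alternatives, 35 moved by over 1.5 times and 241 did not. Depth is unknown and limits every absence of a peak. The sets were compared within each embryo, and peak widths are described within litters. For a test of WT against null no paired analysis was possible because the rule used every WT library.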

Other observations

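The same rule applied to chromosome X, which was not part of the set, found 11 stretches on 162 Mb, or 0.0679 per Mb, against 3.12 per Mb on the autosomes. Null-only stretches were also fewer there, 8.97 against 40.6 per Mb, and per 100 null-only stretches the X held 0.757 against 7.69 on the autosomes. Peaks of the WT carcasses covered 0.166% and 0.163% of the X against 0.991% and 0.845% of the autosomes, and those of the null carcasses 0.522% and 0.889% against 5.72% and 8.01%.

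The densest groups of stretches, picked after their values were seen, were 7 within 98.2 kb of *App* (chr16:85067701-85165900), 6 within 53.5 kb of *Cadm1* (chr9:47353601-47407100), 6 within 93.7 kb of *Rbms3* (chr9:116744101-116837800) and 6 within 76.7 kb without a protein-coding gene (chr2:166275401-166352100). The last group lies in no gene named above. *Spats2l* and *Tanc1* each held 5, within 43.4 and 69.3 kb.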
